A study of Mus musculus with 2 samples.

Results

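Serpins are protease inhibitors, and 7 serpin genes carried by mouse leukocytes, Serpina3g, Serpina3f, Serpinb1a, Serpinb6a, Serpinb6b, Serpinb9 and Serpinb9b, were followed across the cell classes of the spleen. They were chosen by gene symbol, with earlier values of the same cells in view: several of them mark a B cell state that was richer in the Vehicle library, so their B cell values are given as a description. They are 7 of the 62 genes with a Serpin symbol among the 32285 genes of the feature lists. The spleens came from wild-type (WT) mice that had been given 10000 iRBCs into the peritoneum 5 days earlier, where iRBC is left without explanation in the labels. The Glutoborin group was given Glutoborin on days 2 and 4, and the Vehicle group was given Vehicle on the same days. Both groups therefore carry the same infection, and what Glutoborin is, the age and strain of the mice and the number of mice behind each library are not given in the sources used here. CD45+ leukocytes were sorted by flow cytometry and sequenced as droplet libraries from the 3' end of each transcript, with 1 library per group.

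A serpin presents a loop that its target protease cuts, and the cut traps the protease in an inactive complex. Clade A serpins are mostly secreted, but mouse Serpina3g stays in the cell, where it inhibits cysteine cathepsins released from lysosomes, and it is induced by interferon gamma and NF-kappaB signals in lymphocytes. Clade B serpins act inside the cell that makes them: Serpinb1a, the counterpart of human SERPINB1, and Serpinb6a block serine proteases of neutrophil granules, while Serpinb6b and Serpinb9 block granzymes A and B, the proteases with which cytotoxic lymphocytes kill their targets. Serpina3f is a close relative of Serpina3g, and Serpinb9b of Serpinb9.

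The genes lie in 2 clusters of the mouse genome. On GRCm38, Serpina3f occupies chr12:104214544-104221129 and Serpina3g chr12:104236245-104241939, both on the plus strand. The clade B genes lie on chromosome 13: Serpinb1a at chr13:32842092-32851185 on the minus strand, Serpinb6b at chr13:32965209-32979067, Serpinb9 at chr13:33003250-33017957 and Serpinb9b at chr13:33027416-33041884 on the plus strand, and Serpinb6a at chr13:33917918-34002794 on the minus strand. RefSeq promoters (GRCm38.p6, 250 bases before to 50 after a start, 300 in all) were at hand for 6 of the 7 genes, 8 promoters in all, and not for Serpinb1a. They were searched on both strands for the interferon-stimulated response element (ISRE), which was found in 3.44% of 32851 promoters of the same length. Serpina3g and Serpina3f are shown because both were lower in Glutoborin B cells, and neither window holds an ISRE match. The Serpina3g promoter is at chr12:104235897-104236196 and that of the first Serpina3f start at chr12:104214294-104214593, both plus strand.
Serpina3g: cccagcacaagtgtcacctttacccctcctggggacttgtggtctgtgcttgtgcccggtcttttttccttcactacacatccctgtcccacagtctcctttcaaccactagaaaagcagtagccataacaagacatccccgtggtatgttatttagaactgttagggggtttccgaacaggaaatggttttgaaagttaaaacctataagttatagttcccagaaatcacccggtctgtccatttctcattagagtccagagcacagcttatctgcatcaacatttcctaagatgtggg
Serpina3f: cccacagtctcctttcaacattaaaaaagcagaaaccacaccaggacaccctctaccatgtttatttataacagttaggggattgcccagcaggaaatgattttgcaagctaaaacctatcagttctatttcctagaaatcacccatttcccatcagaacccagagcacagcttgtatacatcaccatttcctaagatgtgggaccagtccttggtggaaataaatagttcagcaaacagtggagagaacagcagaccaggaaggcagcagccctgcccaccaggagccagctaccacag
The 2 promoters were 83.7% identical over 202 aligned bases, against 53.8 to 67.4% for every other pair of promoters from different genes. The neighbours Serpinb9 (chr13:33004291-33004590) and Serpinb9b (chr13:33027164-33027463), plus strand, are shown because they are the pair whose levels ran most alike across classes. The capitals in Serpinb9 mark an ISRE match, TTTCACTTTC, 46 bases before the start, and no match was found in the Serpinb9b window.
Serpinb9: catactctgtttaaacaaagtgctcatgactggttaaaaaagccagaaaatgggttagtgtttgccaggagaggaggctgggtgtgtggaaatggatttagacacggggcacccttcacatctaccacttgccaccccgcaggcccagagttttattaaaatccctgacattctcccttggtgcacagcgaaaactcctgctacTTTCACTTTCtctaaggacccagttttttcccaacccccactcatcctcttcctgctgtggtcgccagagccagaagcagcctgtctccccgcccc
Serpinb9b: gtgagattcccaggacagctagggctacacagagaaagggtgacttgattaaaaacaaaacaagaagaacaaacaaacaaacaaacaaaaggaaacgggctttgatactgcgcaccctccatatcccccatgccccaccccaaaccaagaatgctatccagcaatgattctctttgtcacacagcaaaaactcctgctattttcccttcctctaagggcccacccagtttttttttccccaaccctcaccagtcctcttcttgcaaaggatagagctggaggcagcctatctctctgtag
Serpinb6a, on the minus strand, held an ISRE match in the promoter of 1 of its 2 starts, and the Serpinb6b promoter held none. A match, or its absence, describes the letters in these windows and says nothing of a factor there. Serpina3g and Serpina3f also share sequence at the transcript end that is read: 2.44% and 1.55% of the 50-base windows in their last 500 bases occurred in another gene's transcript, against 0 for the other 5 genes, so that a small part of the reads of the Serpina3 pair could be split or lost in counting.

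A UMI, a unique molecular identifier, counts 1 RNA molecule. The Glutoborin library held 56862506 UMIs in 9646 barcodes and the Vehicle library 48526451 in 8204. Filters kept 8906 Glutoborin cells and 6493 Vehicle cells, with medians of 4811 and 5688 UMIs. The filter on mitochondrial RNA took 4.07% of the Glutoborin barcodes and 18.5% of the Vehicle barcodes. The libraries shared 24 barcodes, 20 of them among kept cells, and 7 of these 20 (35%) fell in the same class in both, against 35.2% from the class sizes. Marker genes gave names to clusters, making 14 classes, where for example "B cell" means a B-cell-like cluster. The CD45 gene Ptprc was detected in 72.5% to 100% of the cells of every class. Clusters without a name held 7.25% of Glutoborin cells and 8.84% of Vehicle cells. Levels are CPM, the UMIs of a gene per 1000000 UMIs of its class in 1 library, and a log2 ratio is Glutoborin over Vehicle. Each group is 1 library, so no test could be run, the difference has no replicate check, and every interval is an exact 95% interval that covers counting error only.

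Over all kept cells the Serpina3 pair was lower in the Glutoborin library, while the clade B genes differed less. Serpina3g had 7835 UMIs at 149 CPM in Glutoborin and 11638 UMIs at 264 CPM in Vehicle, a log2 ratio of -0.82 (-0.86 to -0.78). Serpina3f stood at 28.3 CPM in Glutoborin and 55.1 CPM in Vehicle, a log2 ratio of -0.96 (-1.05 to -0.87). Serpinb9 had a log2 ratio of -0.42 (-0.52 to -0.32) and Serpinb1a one of -0.24 (-0.29 to -0.20). Serpinb6a was at 15.3 CPM in Glutoborin and 13.4 CPM in Vehicle, a log2 ratio of 0.19 (0.03 to 0.34). For Serpinb6b and Serpinb9b the intervals reached both sides of 0, at -0.01 to 0.17 and -0.18 to 0.28. These sums mix classes whose levels differ widely, and the classes are described below one by one.

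The 7 genes fell into 3 patterns by the class that held most of their RNA. B cells held 69.6% of the Serpina3g UMIs, 79.6% of the Serpina3f UMIs and 93.5% of the Serpinb1a UMIs in Glutoborin, against 73.1%, 81.7% and 91.6% in Vehicle. NK cells, 318 Glutoborin and 233 Vehicle cells, held 43.8% of the Serpinb6b UMIs, 46.6% of the Serpinb9 UMIs and 78.8% of the Serpinb9b UMIs in Glutoborin, against 42.8%, 51.5% and 94.3% in Vehicle. Serpinb6a was spread thinly, with 34.7% of its UMIs in B cells in Glutoborin and 35.3% in Vehicle. These are shares of the UMIs of all kept cells, so UMIs in unnamed clusters count in the total but in no class. Along the classes, the likeness of the genes to each other followed this grouping only in part. Over 14 points, 7 classes in 2 libraries, the Pearson correlation of log2(CPM + 10) was 0.985 between Serpinb9 and Serpinb9b, 0.957 between Serpinb6b and Serpinb9, 0.820 between Serpina3f and Serpina3g, 0.798 between Serpinb1a and Serpina3f and -0.420 between Serpinb1a and Serpinb6b. Serpinb1a and Serpina3g, both held mostly by B cells, reached 0.531. Serpinb6a reached 0.673 with Serpinb6b, 0.599 with Serpinb9 and 0.554 with Serpinb9b. With Serpina3g, Serpina3f and Serpinb1a it had -0.014, -0.108 and -0.472. These points share libraries and depth, and the values describe the classes only.

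**Figure D1:**
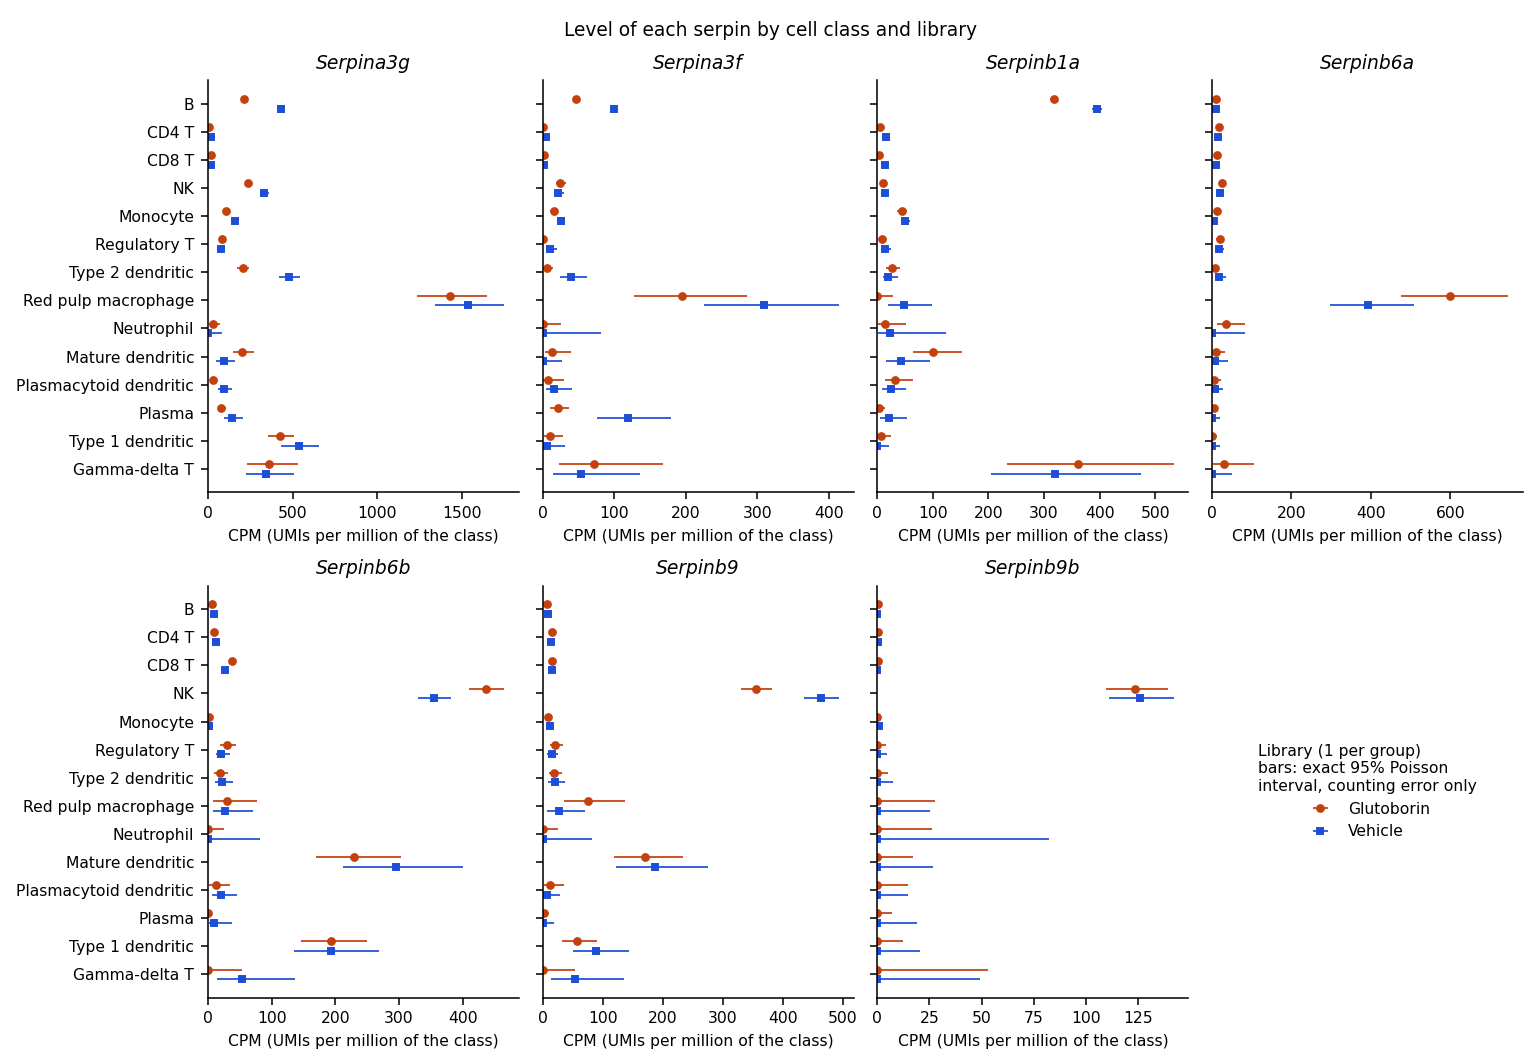
Level of the 7 serpins (CPM, linear axis) in each named cell class, with the Glutoborin library and the Vehicle library as separate points and exact 95% Poisson intervals as bars. Serpinb6b, Serpinb9 and Serpinb9b are highest in NK cells, Serpinb1a in B and gamma-delta T cells, and Serpina3g, Serpina3f and Serpinb6a in red pulp macrophages.

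Serpina3g, the cathepsin inhibitor, was most concentrated in red pulp macrophages, the phagocytes that clear old red cells, although most of its RNA lay in B cells. It stood at 1432 CPM (1236 to 1649.6) in Glutoborin and 1534 CPM (1339 to 1749) in Vehicle red pulp macrophages, which were 40 and 39 cells, a log2 ratio of -0.10 (-0.39 to 0.19). The 10 richest of these cells held 69.1% of the class's Serpina3g UMIs in Glutoborin and 60.1% in Vehicle, and the 2 clusters of the class stood at 1058 and 1606 CPM in Glutoborin against 2006 and 1379 CPM in Vehicle. The next class was type 1 dendritic cells, which take up dying cells and cross-present antigen, at 429 CPM (358 to 509) in Glutoborin and 536 CPM (435 to 654) in Vehicle, from 19 and 9 cells. The classes after these had another order in each library. Gamma-delta T cells had 361 CPM (234 to 533) in Glutoborin and 346 CPM (226 to 506) in Vehicle, type 2 dendritic cells 206 CPM in Glutoborin and 481 CPM in Vehicle, and NK cells 238 CPM in Glutoborin and 333 CPM in Vehicle. B cells, at 215 CPM in Glutoborin and 429.7 CPM in Vehicle, stood below NK cells in Glutoborin and above them in Vehicle. At the low end, CD4 T cells had 8.07 CPM in Glutoborin and 17.9 CPM in Vehicle, and CD8 T cells 19.4 CPM in Glutoborin and 17.6 CPM in Vehicle.

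In B cells Serpina3g stood in Glutoborin at 0.500 times its Vehicle level, and Serpina3f at 0.466 times. Serpina3g had 5453 UMIs at 215 CPM in 5138 Glutoborin B cells and 8505 UMIs at 429.7 CPM in 3529 Vehicle B cells, a log2 ratio of -0.999 (-1.05 to -0.95). Serpina3f had 1185 UMIs at 46.7 CPM in Glutoborin and 1986 UMIs at 100.3 CPM in Vehicle, a log2 ratio of -1.10 (-1.21 to -0.998). The intervals of the 2 libraries lay far apart for both genes. Serpina3g was found in 44.4% of Glutoborin and 66.3% of Vehicle B cells, whose median depths were 4106.5 and 4742 UMIs. After each cell was thinned to 2000 UMIs, which left out 56 Glutoborin and 57 Vehicle B cells, these shares were 28.6% (27.4 to 29.9%) and 45.8% (44.2 to 47.5%). In CD4 T cells, a class low in the gene, the thinned shares were 1.64% and 3.02% at median depths of 4867.5 and 5721.5 UMIs, with 3.42% and 9.73% before thinning. For Serpina3f the thinned shares of B cells were 8.32% in Glutoborin and 16.5% in Vehicle, and the shares before thinning 14.97% and 32.2%, against thinned shares of 0.273% and 0.628% in CD4 T cells. The difference lay along the whole distribution per cell: B cells with at least 5 Serpina3g UMIs after thinning were 0.925% in Glutoborin and 3.399% in Vehicle.

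Of the 7 genes, 6 had at least 50 UMIs in B cells and 3 of these were at least 1.5-fold lower in Glutoborin (Serpina3g, Serpina3f and Serpinb6b) and 0 higher, with a median log2 ratio of -0.53. Over all 10625 genes with that many UMIs in B cells, 3.3% were at least 1.5-fold lower and 2.51% higher, with a median of 0.02; because the genes were chosen on this contrast, nothing is read from that difference. The summed level of 9 monocyte markers in B cells was 161 CPM in Glutoborin and 389.99 CPM in Vehicle, with all 9 detected in both. These markers include Ly6c2, a leading gene of B cell clusters 5 and 13, at 388 and 384 CPM over both libraries against 149 and 162 CPM in the other B cells. The sum is therefore not a measure of monocyte RNA alone, and the part of monocyte RNA in these results was not tested. The monocyte class itself held Serpina3g at 105 CPM in Glutoborin and 161 CPM in Vehicle, below the B cells of the same library. The red pulp macrophage markers summed to 7.61 CPM in Glutoborin and 6.11 CPM in Vehicle B cells.

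**Figure D2:**
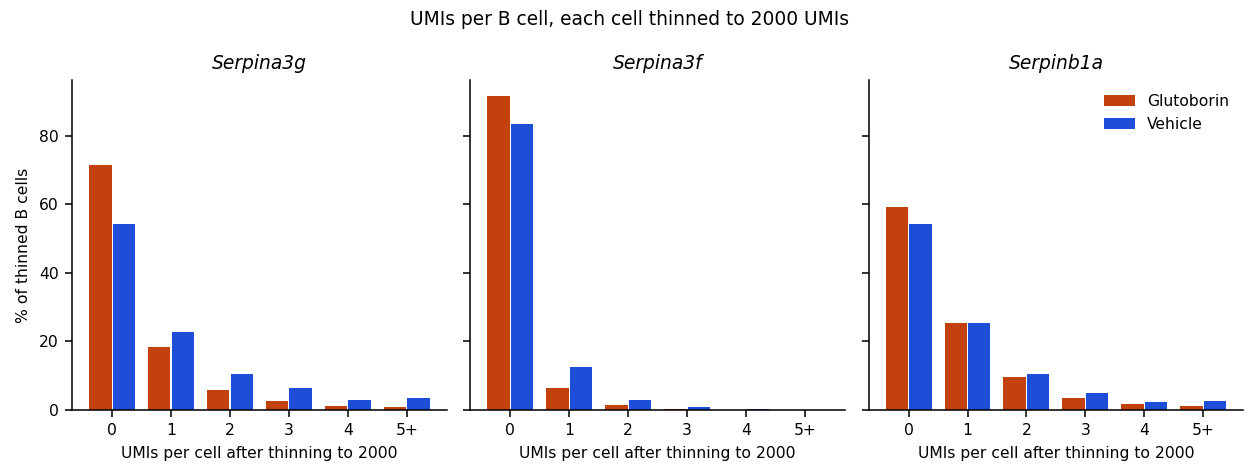
Share of B cells (%) by the number of UMIs of a serpin per cell after thinning to 2000 UMIs, for the Glutoborin library and the Vehicle library. The share of cells with 5 or more Serpina3g UMIs is 0.925% in Glutoborin and 3.399% in Vehicle.

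The B cells formed 10 clusters, drawn without the serpins or the listed interferon genes among the variable genes, and the Serpina3 pair was lower in Glutoborin in each of them. Serpina3g had log2 ratios of -1.24 to -0.19 over the 10 clusters, with a median of -0.70 and every interval below 0. Serpina3f had log2 ratios of -1.68 to -0.31, with a median of -0.88 and again 10 of 10 intervals below 0. The state that the choice of genes used was cluster 3, led among B cells by Slfn5, Ifit3, Socs1, Gbp7, Ifitm3, Gbp4, Ifit2, Serpina3g, Irf7 and Pkib, with 289 Glutoborin and 1099 Vehicle cells. Its leading genes themselves differed between the libraries, so its size is given only as what the choice used. Within it the 2 libraries stood closest, with Serpina3g at 633 CPM in Glutoborin and 723 CPM in Vehicle and Serpina3f at 123 CPM in Glutoborin and 152 CPM in Vehicle. The largest gaps lay elsewhere: in cluster 13 Serpina3g stood at 144 CPM in Glutoborin against 339 CPM in Vehicle, and in cluster 5 Serpina3f stood at 36.6 CPM in Glutoborin against 117 CPM in Vehicle. Cluster 12, which with cluster 17 was the richest in marginal zone markers, held Serpina3g at 201 CPM in Glutoborin and 303 CPM in Vehicle.

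The size of cluster 3 was one of the values on which the genes were chosen, so weighting by cluster is a description only. With the Vehicle share of each cluster given to both libraries, Serpina3g stood at 327 CPM in Glutoborin and 455 CPM in Vehicle, a log2 ratio of -0.48 in place of -0.999, which is within 1.5-fold, and Serpina3f at 67.0 CPM in Glutoborin and 105 CPM in Vehicle, a log2 ratio of -0.66 in place of -1.10. With cluster 3 left out of both libraries the log2 ratio of Serpina3g was -0.76 and that of Serpina3f -0.94.

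**Figure D3:**
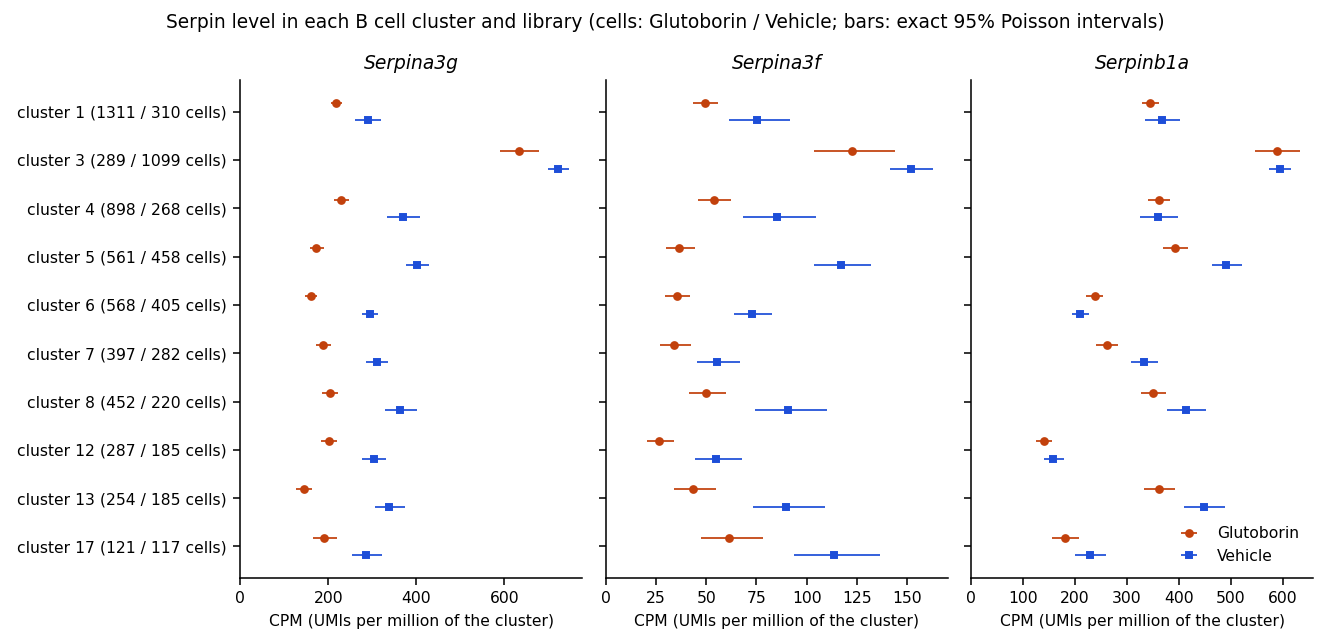
Levels (CPM) of Serpina3g, Serpina3f and Serpinb1a in the 10 B cell clusters, Glutoborin and Vehicle, with exact 95% Poisson intervals. Serpina3g and Serpina3f are lower in Glutoborin in 10 of 10 clusters, and Serpinb1a in 8 of 10.

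Serpina3f was found more often in B cells with a Serpina3g UMI than in B cells without one. Among thinned B cells with a Serpina3g UMI, Serpina3f was found in 17.04% (15.1 to 19.1%) in Glutoborin and 24.0% (21.9 to 26.2%) in Vehicle. Among B cells without one, it was found in 4.82% (4.15 to 5.57%) in Glutoborin and 10.1% (8.78 to 11.6%) in Vehicle. The intervals did not overlap in either library. Serpinb1a showed the same order by a smaller margin, in 46.5% of Glutoborin and 52.2% of Vehicle B cells with a Serpina3g UMI, against 38.6% and 40.2% of those without. All B cell clusters were pooled for these shares, and each of these genes was highest in cluster 3 in both libraries. The part of mixed clusters in these shares was not tested.

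Outside B cells the Serpina3g difference was uneven. In NK cells it had 520 UMIs at 238 CPM in Glutoborin and 696 UMIs at 333 CPM in Vehicle, a log2 ratio of -0.49 (-0.66 to -0.32). The 7 B cell markers in NK cells summed to 144 CPM in Glutoborin and 254 CPM in Vehicle, all 7 detected in both. Among the 139 Glutoborin and 56 Vehicle NK cells with no UMI of any B marker, the log2 ratio was -0.16 (-0.50 to 0.18). In type 2 dendritic cells, which present antigen to CD4 T cells, Serpina3g had 206 CPM (144 UMIs) in Glutoborin and 481 CPM (240 UMIs) in Vehicle, a log2 ratio of -1.22 (-1.53 to -0.92), from 78 and 56 cells. The 10 richest of these cells held 52.8% of the UMIs in Glutoborin and 57.1% in Vehicle. This class was too small to be among the compared classes, so no alternative setting was run for it. In regulatory T cells, the Foxp3 lineage, Serpina3g had 86.0 CPM in Glutoborin and 76.7 CPM in Vehicle, a log2 ratio of 0.16 (-0.35 to 0.68). Mature dendritic cells had 202 CPM from 44 UMIs in Glutoborin and 93.7 CPM from 13 UMIs in Vehicle. The gene was thus higher in Glutoborin in that small class and lower in type 2 dendritic cells, and neither difference was tested.

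In monocytes, blood phagocytes recruited to the spleen, the Serpina3 pair was lower in Glutoborin in the plain sums, but the value turned with the cells used. Serpina3g had 249 UMIs at 105 CPM in 205 Glutoborin cells and 526 UMIs at 161 CPM in 298 Vehicle cells, a log2 ratio of -0.61 (-0.83 to -0.39). The 10 richest cells held 62.7% of these UMIs in Glutoborin and 35.7% in Vehicle, and without them the log2 ratio was -1.38. The B cell markers summed to 467 CPM in Glutoborin and 569 CPM in Vehicle monocytes. Among the 50 Glutoborin and 67 Vehicle monocytes with no UMI of a B marker the log2 ratio was 1.14, from 87 and 47 UMIs, so the direction depends on which cells are counted. Serpina3f followed, at 15.3 CPM in Glutoborin and 25.7 CPM in Vehicle, a log2 ratio of -0.76 (-1.36 to -0.18) that became -1.69 without the 10 richest cells and 0.43, from 9 and 8 UMIs, without cells holding a B marker. Of the 4 genes measured in monocytes 2 were at least 1.5-fold lower in Glutoborin and 0 higher, beside 6.33% of genes lower and 3.54% higher in that class. With a mitochondrial limit of 20% both were within 1.5-fold, at -0.57 for Serpina3g and -0.48 (-1.05 to 0.07) for Serpina3f. Serpinb1a and Serpinb9, the other 2, had log2 ratios of -0.17 and -0.36.

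Serpina3f, the relative of Serpina3g, followed it only in part across classes. It was highest in red pulp macrophages, at 195 CPM (127 to 286) in Glutoborin and 309 CPM (226 to 414) in Vehicle. Gamma-delta T cells had 72.3 CPM (23.5 to 169) in Glutoborin and 53.2 CPM (14.5 to 136) in Vehicle, and B cells 46.7 CPM in Glutoborin and 100.3 CPM in Vehicle, with the interval of the B cells inside that of the gamma-delta T cells in each library. NK cells had 24.7 CPM in Glutoborin and 22.0 CPM in Vehicle. In type 1 dendritic cells, where Serpina3g was high, Serpina3f had 3 UMIs in Glutoborin and 1 in Vehicle. In plasma cells, the antibody secretors, it had 11 UMIs at 20.9 CPM in 24 Glutoborin cells and 23 UMIs at 119 CPM in 11 Vehicle cells.

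Serpinb1a, the inhibitor of neutrophil elastase and cathepsin G, was highest, among the named classes, in B cells and the small gamma-delta T class. In B cells it had 8042 UMIs at 317 CPM in Glutoborin and 7828 UMIs at 395 CPM in Vehicle, a log2 ratio of -0.32 (-0.36 to -0.27). It was found in 63.7% of Glutoborin and 69.0% of Vehicle B cells, and after thinning in 40.8% (39.5 to 42.2%) and 45.7% (44.1 to 47.4%). The libraries differed by less for Serpinb1a than for the Serpina3 pair, although its intervals did not overlap either. Over the 10 B cell clusters it was lower in Glutoborin in 8, with the interval below 0 in 5 and above 0 in 1, cluster 6, at 0.18 (0.03 to 0.33). Cluster 3 had 589 CPM in Glutoborin and 596 CPM in Vehicle, and cluster 12 had 139 CPM in Glutoborin and 158 CPM in Vehicle, the highest and the lowest of the 10 in Glutoborin as in Vehicle. With the Vehicle cluster shares in both libraries its log2 ratio was -0.11, and with cluster 3 left out -0.10.

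Gamma-delta T cells held Serpinb1a at 361 CPM (234 to 533) in Glutoborin and 319 CPM (204 to 475) in Vehicle, from 25 and 24 UMIs in 11 and 9 cells. Clusters T11, with 104 Glutoborin and 81 Vehicle cells, and T12, with 62 and 57, stayed unnamed and are not counted in this class. Tcrg-C2 was among the leading genes of both, and Trdc among those of T12. The other named T cell classes stood far lower. CD8 T cells had 27 UMIs at 3.44 CPM in Glutoborin and 80 UMIs at 13.7 CPM in Vehicle, a log2 ratio of -1.99 (-2.68 to -1.34), and CD4 T cells had 29 UMIs at 5.198 CPM in Glutoborin and 70 UMIs at 14.8 CPM in Vehicle, a log2 ratio of -1.51 (-2.18 to -0.86). The B markers were also lower in Glutoborin in both classes. They summed to 128 CPM in Glutoborin and 183 CPM in Vehicle CD8 T cells and to 140 CPM in Glutoborin and 209 CPM in Vehicle CD4 T cells, with all 7 detected. Per 1000 B marker UMIs, Serpinb1a had 26.9 UMIs (17.6 to 39.3) in Glutoborin and 74.8 (58.9 to 94.0) in Vehicle CD8 T cells, 37.1 (24.7 to 53.7) in Glutoborin and 70.5 (54.5 to 89.9) in Vehicle CD4 T cells, and 34.7 in Glutoborin and 46.7 in Vehicle B cells. Among T cells with no UMI of a B marker, Serpinb1a had 10 UMIs in Glutoborin and 20 in Vehicle in CD8 T cells, a log2 ratio of -2.08, and 8 and 19 in CD4 T cells, a log2 ratio of -2.36.

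Of the 5 genes measured in CD4 T cells 2 were at least 1.5-fold lower in Glutoborin, Serpina3g and Serpinb1a, and 0 higher, beside 2.73% of genes lower and 2.3% higher in that class. Serpina3g there had 45 UMIs in Glutoborin and 85 in Vehicle, a log2 ratio of -1.15 (-1.71 to -0.61). Of the 5 measured in CD8 T cells 1, Serpinb1a, was lower and 0 higher, beside 3.04% of genes lower and 1.86% higher. In regulatory T cells 1 gene was measured, Serpina3g, and it passed 1.5-fold in neither direction, beside 5.07% of genes lower and 2.33% higher. In NK cells all 7 were measured and 0 passed 1.5-fold in either direction, beside 6.73% of genes lower and 6.63% higher.

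**Figure D4:**
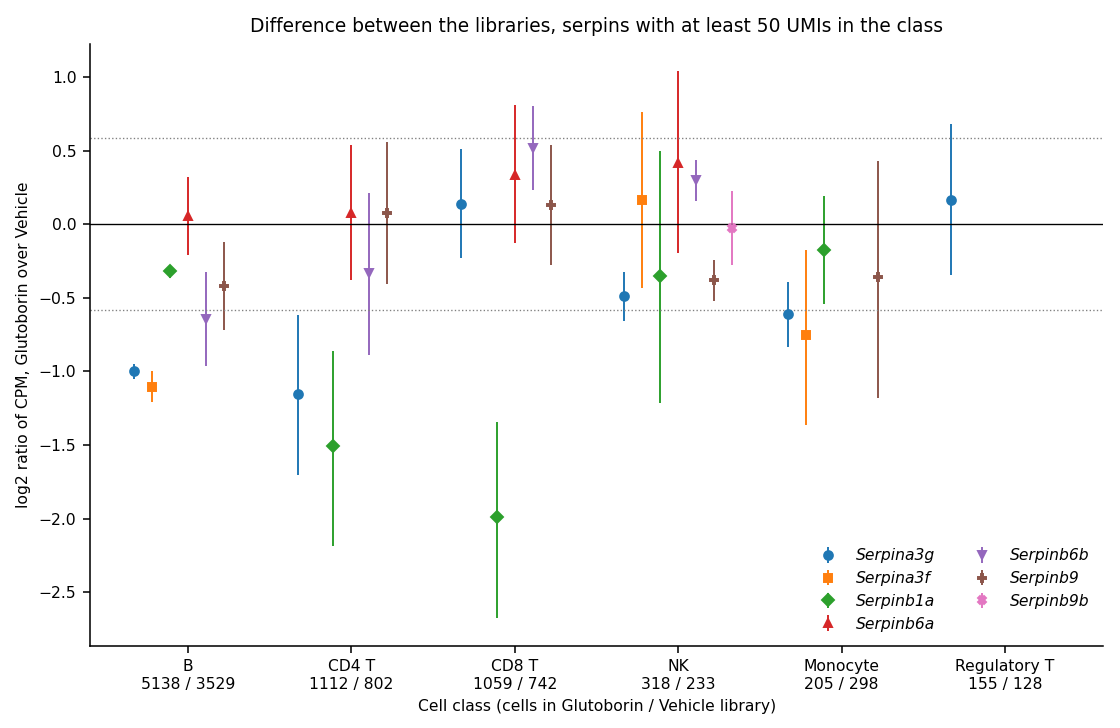
Log2 ratio of Glutoborin over Vehicle for each serpin in the 6 compared classes, with exact 95% intervals for counting error and the 1.5-fold limits as lines. The Serpina3 pair lies near -1 in B cells, and Serpinb6b lies below 0 in B cells and above 0 in CD8 T and NK cells, with -0.019 in CD8 T cells at a Leiden resolution of 0.8.

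Serpinb6a, an inhibitor of cathepsin G, was low in lymphocytes and high in red pulp macrophages. Red pulp macrophages had 80 UMIs at 599.6 CPM (475 to 746) in Glutoborin and 57 UMIs at 392 CPM (297 to 508) in Vehicle, a log2 ratio of 0.61 (0.11 to 1.13), from 40 and 39 cells with median depths of 2092.5 and 1671 UMIs. The 10 richest cells held 57.5% of these UMIs in Glutoborin and 77.2% in Vehicle, where 1 cell had 14. Cluster M2, led by red pulp macrophage markers with 32 Glutoborin and 28 Vehicle cells, stayed unnamed and is not counted in this class. In B cells it had 10.96 CPM in Glutoborin and 10.6 CPM in Vehicle, a log2 ratio of 0.05 (-0.21 to 0.32), and in CD4 T cells 16.5 CPM in Glutoborin and 15.6 CPM in Vehicle. CD8 T cells had 13.4 CPM in Glutoborin and 10.6 CPM in Vehicle, and NK cells 25.6 CPM in Glutoborin and 19.2 CPM in Vehicle. All 4 lymphocyte intervals of the ratio included 0. Serpinb1a, its partner against neutrophil proteases, had 0 UMIs in Glutoborin and 7 in Vehicle red pulp macrophages.

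Among the named classes, the granzyme inhibitors stood at their highest level in NK cells. For Serpinb6b and Serpinb9, mature dendritic cells came next by level. That small class held 2.29% of the Serpinb6b UMIs in Glutoborin and 2.37% in Vehicle, and 2.22% and 1.39% of the Serpinb9 UMIs. Unnamed clusters also held UMIs of these genes, and only some of those clusters are described at the end. Serpinb6b, which in mouse inhibits granzyme A, had 955 UMIs at 436 CPM in Glutoborin and 740 UMIs at 355 CPM in Vehicle NK cells, a log2 ratio of 0.30 (0.16 to 0.44). Serpinb9, the granzyme B inhibitor, had 778 UMIs at 356 CPM in Glutoborin and 967 UMIs at 463 CPM in Vehicle NK cells, a log2 ratio of -0.38 (-0.52 to -0.24). Their relative Serpinb9b had 271 UMIs at 124 CPM in Glutoborin and 263 UMIs at 126 CPM in Vehicle, a log2 ratio of -0.02 (-0.28 to 0.23). Serpinb6b was thus higher in Glutoborin NK cells and Serpinb9 lower, and for Serpinb9b the interval held 0. The share of NK cells with a Serpinb6b UMI was 82.7% in Glutoborin and 76.8% in Vehicle, or 53.5% (47.8 to 59.0%) and 43.2% (36.6 to 49.9%) after thinning. For Serpinb9 it was 78.9% in Glutoborin and 94.4% in Vehicle, or 45.9% (40.3 to 51.6%) and 55.5% (48.8 to 62.1%) after thinning. In B cells, a class low in both, the thinned shares were 1.08% and 1.30% for Serpinb6b and 1.18% and 1.498% for Serpinb9 in Glutoborin and Vehicle. Without the NK cells that held a B marker UMI, the log2 ratio of Serpinb6b was 0.13 (-0.12 to 0.38) and that of Serpinb9 -0.32 (-0.55 to -0.08).

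Serpinb9b was found in few NK cells and in almost no cell of another named class. It was found in 26.7% of Glutoborin and 27.0% of Vehicle NK cells, and in 15.7% (11.9 to 20.2%) and 16.7% (12.1 to 22.2%) after thinning. The 10 richest NK cells held 33.6% of its UMIs in Glutoborin and 44.1% in Vehicle. In B cells it had 5 UMIs in Glutoborin and 0 in Vehicle, where 0 of 3472 thinned cells allows a share of up to 0.0864%, a limit on cells with a UMI at this depth and not on cells that express the gene. In thinned NK cells, the presence of each of the 3 genes was set beside that of the others. Serpinb9 was found in 45.3% of Glutoborin and 53.1% of Vehicle thinned NK cells with a Serpinb6b UMI, against 46.6% and 57.4% of those without. Serpinb9b was found in 15.9% of Glutoborin and 21.4% of Vehicle thinned NK cells with a Serpinb6b UMI, against 15.5% and 13.2% of those without. The intervals of each such pair overlapped in both libraries. With so few cells, that does not show that the genes were independent.

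Among dendritic cells, the small mature and type 1 classes held Serpinb6b and Serpinb9 at the higher levels, and every dendritic class had 0 UMIs of Serpinb9b in either library. Mature dendritic cells, which have migrated and present antigen, had Serpinb6b at 230 CPM (50 UMIs) in Glutoborin and 296 CPM (41 UMIs) in Vehicle, and Serpinb9 at 170 CPM (37 UMIs) in Glutoborin and 187 CPM (26 UMIs) in Vehicle. Type 1 dendritic cells had Serpinb6b at 193 CPM in each library and Serpinb9 at 56.5 CPM in Glutoborin and 88.4 CPM in Vehicle. Plasmacytoid dendritic cells, the main makers of type I interferon, had 3 Serpinb6b UMIs in Glutoborin and 5 in Vehicle. For both genes the counting error in these classes was too wide to set the libraries apart.

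In CD8 T cells the granzyme inhibitors were highest in 1 of the clusters, one with cytotoxic genes. Over the class Serpinb6b had 301 UMIs at 38.4 CPM in Glutoborin and 157 UMIs at 26.9 CPM in Vehicle, a log2 ratio of 0.52 (0.23 to 0.80). Cluster T9, led by Ctla2a, Gzmm, Cd8b1, Cd8a, Ccl5 and Cxcr3, held 72.1% of these UMIs in Glutoborin and 47.1% in Vehicle, in 17.5% of the CD8 T cells of Glutoborin and 12.7% of those of Vehicle. Its level was 111 CPM in Glutoborin and 69.7 CPM in Vehicle, and outside it CD8 T cells had 14.3 CPM in Glutoborin and 17.3 CPM in Vehicle. Serpinb9 had 34.2 CPM in Glutoborin and 26.4 CPM in Vehicle in T9, which held 51.9% of the class's Serpinb9 UMIs in Glutoborin and 31.8% in Vehicle. Over the class it had 16.5 CPM in Glutoborin and 15.1 CPM in Vehicle, a log2 ratio of 0.13 (-0.27 to 0.54). NK markers over the CD8 class summed to 264 CPM in Glutoborin and 138 CPM in Vehicle, all 7 detected in both, and their part in the result was not tested. These markers include Gzma, whose own level in the class is given below. The Serpinb6b value over the class was -0.019 with a Leiden resolution of 0.8, where 884 Glutoborin and 667 Vehicle cells fell in the class, and 0.05 with doublets kept.

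In B cells the granzyme inhibitors were near their lowest. Serpinb6b had 150 UMIs at 5.91 CPM in Glutoborin and 183 UMIs at 9.25 CPM in Vehicle, a log2 ratio of -0.64 (-0.97 to -0.33), and the 10 richest cells held 18.7% of these UMIs in Glutoborin and 29.5% in Vehicle. It was lower in Glutoborin in 4 of the 10 B cell clusters, with the interval below 0 in 3 and above 0 in 0, and the median log2 ratio of the clusters with UMIs in both libraries was 0.07. Cluster 6 had 33 of its UMIs in Glutoborin and 71 in Vehicle, and cluster 17 had 1 in Glutoborin and 23 in Vehicle. Sums of thinned cells gave a log2 ratio of -0.25 and the Vehicle cluster shares one of -0.26, both within 1.5-fold. Serpinb9 had 7.21 CPM in Glutoborin and 9.65 CPM in Vehicle, a log2 ratio of -0.42 (-0.72 to -0.12). NK markers in B cells summed to 24.5 CPM in Glutoborin and 29.4 CPM in Vehicle, and their part was not tested.

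The genes whose pattern over classes was most like each serpin were found by the same Pearson correlation over 14 points among 10623 genes. For Serpinb1a these were Ms4a1 (0.982), Bank1 (0.979) and Ighd (0.979), and for Serpinb9b Styk1, Klrb1a and Klrb1c (0.998 each). Serpinb6b was most like Pogk (0.983), Tbx21 (0.974) and F2rl2 (0.970), and Serpinb9 like Rhoc (0.989), Car5b (0.989) and Adamts14 (0.988). Serpina3g was most like Ptpa (0.954), Dennd4a (0.926) and Agtpbp1 (0.918), Serpina3f like Ppp3ca (0.900), Recql5 (0.899) and Gemin7 (0.892), and Serpinb6a like Sart1 (0.913), Nudt1 (0.883) and Fam210b (0.874). The 14 points share libraries and depth, and a like pattern says nothing of shared control. With log2(CPM + 1), Clnk came first for Serpinb9 (0.973) and Serpinb9b (0.996) and Irf8 for Serpina3f (0.906), and 1 of the 3 genes named for Serpina3f and for Serpinb9 stayed among the first 3.

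The proteases and pathways around the serpins were described by lists that were chosen with results of these data known. In B cells 16 of 20 measured interferon gamma targets were at least 1.5-fold lower in Glutoborin and 0 higher, beside 3.3% of all genes lower and 2.51% higher, with a median log2 ratio of -0.99 beside 0.02 over all genes. The immunoproteasome subunits Psmb8 and Psmb9 had log2 ratios of -0.23 and -0.44. Of the type I interferon targets 19 of 19 measured were lower, beside the same 3.3%, with a median of -1.91. Trim30a stood at 107 CPM in Glutoborin and 273 CPM in Vehicle, and Irf7, the factor that amplifies interferon production, at 70.5 CPM in Glutoborin and 228 CPM in Vehicle, while Zbp1, a nucleic acid sensor, had a log2 ratio of -1.51. Of 15 measured NF-kappaB targets 0 passed 1.5-fold in either direction, with a median of -0.02, and Nfkbia, Rel and Nfkb1 had log2 ratios of 0.05, -0.06 and -0.02.

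The cysteine cathepsins, the protease family on which Serpina3g acts, differed little in B cells. Which of the measured members are its targets is not shown by these data. Of 8 measured cysteine cathepsins 0 passed 1.5-fold, beside 3.3% of all genes lower and 2.51% higher in B cells, with a median of -0.09. Ctss, the cathepsin of antigen presentation, had a log2 ratio of -0.14, Ctsh of 0.19 and Ctsz of -0.05. Of 9 measured cystatins and other inhibitors 1 was lower, beside the same 3.3%, with a median of -0.24. Cst3, Cstb and Cast had log2 ratios of 0.08, 0.06 and 0.24. Of 9 measured inflammasome and pyroptosis genes 0 passed, with a median of -0.06, and Pycard, Casp8 and Casp1 had log2 ratios of -0.09, -0.06 and 0.12. Of the granule serine proteases 2 were measured in B cells at low level, Gzma at 15.5 CPM in Glutoborin and 19.3 CPM in Vehicle and Gzmb at 1.18 CPM in Glutoborin and 5.76 CPM in Vehicle. Of these 2 genes 1, Gzmb, was lower, beside the same 3.3%.

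In the cytotoxic classes the granzymes, the target proteases of Serpinb6b and Serpinb9, differed by class. In NK cells granzyme B (Gzmb) had 719.8 CPM in Glutoborin and 1238 CPM in Vehicle, a log2 ratio of -0.78 (-0.87 to -0.69), while granzyme A (Gzma) had 11765 CPM in Glutoborin and 12193 CPM in Vehicle, a log2 ratio of -0.05. Over the list 1 of 5 measured granule proteases was lower and 2 higher in NK cells, beside 6.73% and 6.63% of all genes there, with a median of 0.42 beside 0.02 over all genes. In CD8 T cells 4 of 4 measured were higher, beside 1.86% of all genes there, with a median of 2.02 beside -0.03 over all genes. Gzma had 153 CPM in Glutoborin and 46.4 CPM in Vehicle and Gzmb 62.2 CPM in Glutoborin and 12.5 CPM in Vehicle. The NK markers in the class were at 264 CPM in Glutoborin and 138 CPM in Vehicle. These sums include Gzma itself, at 153 CPM in Glutoborin and 46.4 CPM in Vehicle, so they are not a separate measure of NK RNA beside the granzymes. The cytotoxic cluster T9 made up 17.5% of the CD8 T cells in Glutoborin and 12.7% in Vehicle. The part of NK RNA or of T9 in the granzyme values was not tested. Interferon gamma targets in these classes were lower for 4 of 15 measured in NK cells (median -0.49) and 5 of 19 in CD8 T cells (median -0.49), and type I interferon targets for 8 of 11 in NK cells (median -0.89) and 19 of 19 in CD8 T cells (median -1.44), beside 6.73% of all genes lower in NK cells and 3.04% in CD8 T cells.

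**Figure D5:**
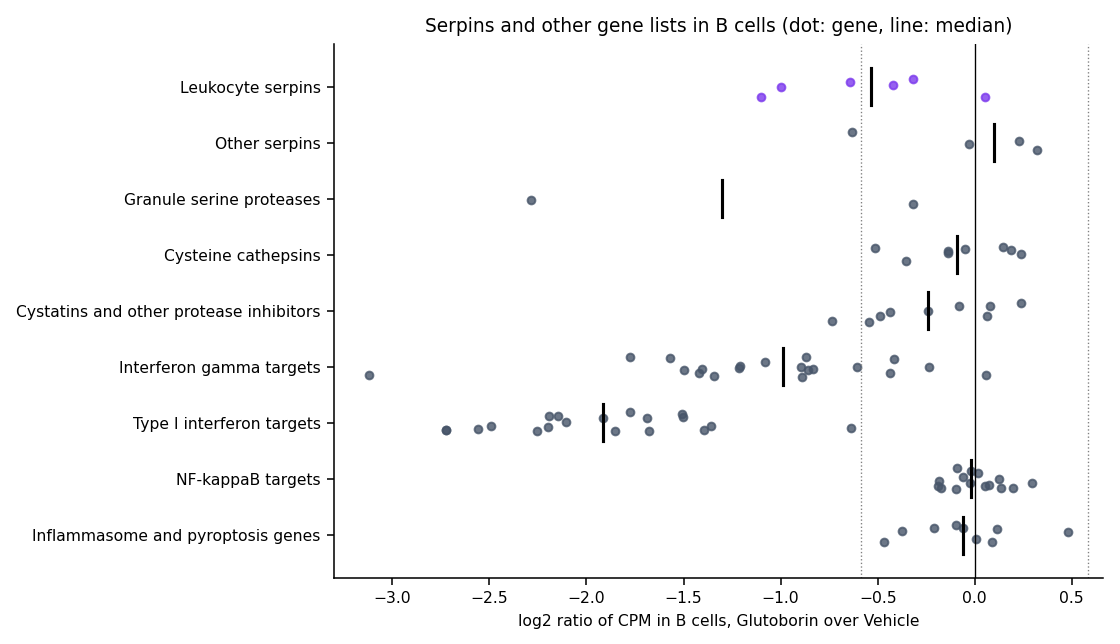
Log2 ratio of Glutoborin over Vehicle in B cells for each measured gene of the lists around the serpins, with the median of each list and the 1.5-fold limits. The interferon lists lie mostly below the lower limit, and the NF-kappaB, cathepsin and inflammasome lists lie between the limits.

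Among the 55 other Serpin genes 35 had 0 UMIs in the kept cells and 7 had at least 50. Serpini1, known as the neuronal serpin of tissue plasminogen activator, had 645 UMIs at 12.3 CPM in Glutoborin and 800 UMIs at 18.1 CPM in Vehicle, a log2 ratio of -0.56 (-0.71 to -0.41), and B cells held 67.6% of its UMIs in both libraries together. Serpinb2, the intracellular plasminogen activator inhibitor of myeloid cells, had 33 UMIs in Glutoborin and 59 in Vehicle, a log2 ratio of -1.09 (-1.75 to -0.45). Monocytes held 84.8% of its UMIs in both libraries together, and they were 2.30% of Glutoborin and 4.59% of Vehicle kept cells; the part of this share in the value was not tested. The intervals of Serpinc1, Serpine2, Serpinb7, Serpinb8 and Serpinf1 included 0, with log2 ratios of 0.03 to 0.59. In B cells 1 of the 4 measured other serpins was lower in Glutoborin, Serpini1, beside 3.3% of all genes there, with a list median of 0.10.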

How the data were processed

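Single-cell RNA of CD45+ spleen cells was measured in 1 Glutoborin and 1 Vehicle library, grouped by the treatment in the labels. The authors deposited UMI counts per gene and barcode, whole numbers with no normalization; per the file headers they come from Cell Ranger 6.1.2, while Cell Ranger 6.0.1, Seurat 4.3.0 and mm10 are named in the submitters' processing notes. Libraries were made with a 3' v3.1 droplet kit per the labels' protocols. No source used here names the annotation; 32235 of the 32285 gene identifiers (99.8%) were found in GENCODE release 21 on GRCm38, from which positions were taken, and promoters came from RefSeq (GRCm38.p6).

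Cells with at least 300 genes, 500 UMIs and under 10% mitochondrial UMIs were kept. Scrublet, run in each library, called 347 Glutoborin and 195 Vehicle doublets, which were left out. Counts were scaled to 10000 per cell, log-transformed and clustered with scanpy 1.11.5 (2000 variable genes without serpin, interferon, antigen receptor, mitochondrial and ribosomal genes, 30 components, 15 neighbours, Leiden resolution 1.5), and T cell and myeloid clusters were clustered again. Of 49 clusters, 15 stayed unnamed. Outside T cells, a name needed at least 3 markers of its list, each in at least 20% of cells. T cell clusters were named by single genes at a limit of 40% of cells. These were Foxp3 for regulatory T cells and Trdc for gamma-delta T cells. Cd4 without Cd8a named CD4 T cells, and Cd8a without Cd4 named CD8 T cells. The naming limits and the second clustering were set after the clusters were seen. A difference from the study may come from these rebuilt names. Of the 14 classes, the 6 that had 100 or more cells per library were compared. UMIs were summed per class and library, without a test. Intervals (scipy 1.17.1, exact Poisson, exact Clopper-Pearson binomial and exact ratio of Poisson counts, 95%) and floors of 3 counts cover counting error only. Genes counted against 1.5-fold had at least 50 UMIs over both libraries. Like genes had at least 200 UMIs, over classes that had 50 or more cells per library. Each cell was thinned to 2000 UMIs for shares of cells. The ratio, interval and thinning code was tested on simulated data.

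The serpins, the gene lists and the markers were chosen with earlier results of these data known. The genes named are the 7 serpins, other serpins with at least 50 UMIs, the 3 genes of each list with the most UMIs in B cells (1 of these is not reported here), the 3 genes most like each serpin and the 10 genes leading a B cell cluster; Gzma and Gzmb in NK and CD8 T cells follow from the list rule, and the leading genes of cluster T9 were named after their values were seen. Alternatives were other mitochondrial limits (5 and 20%), doublets kept, resolution 0.8, serpins among the variable genes, median ratio scaling, the 10 richest cells left out, thinned sums, per-cell means, Vehicle cluster shares, other fold limits (1.2 and 2), UMI minimums and pseudocounts, with B cluster 3 or cells with a B marker left out added later.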

Additional observations from a re-analysis of the deposited data

Results flagged for a closer look

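Serpinb6b, the granzyme A inhibitor, lay on opposite sides of 0 in different classes. Its log2 ratio of Glutoborin over Vehicle was -0.64 (-0.97 to -0.33) in B cells, against 0.52 (0.23 to 0.80) in CD8 T cells and 0.30 (0.16 to 0.44) in NK cells, with all 3 intervals clear of 0 for counting error. Whether the classes differ in this respect was not tested, because each group is 1 library. The B cell value rests on 150 UMIs in Glutoborin and 183 in Vehicle, and the CD8 T cell value on 301 UMIs in Glutoborin and 157 in Vehicle. Serpinb6b was lower in Glutoborin in 4 of the 10 B cell clusters, with a median of 0.07, and sums of thinned B cells gave -0.25. In CD8 T cells it was at 0.05 with doublets kept and -0.019 at a Leiden resolution of 0.8, and in NK cells with no B marker UMI at 0.13 (-0.12 to 0.38).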

How the results depend on the processing

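Of 286 log2 ratios recomputed under an alternative, 260 kept their sign and 255 stayed within the counting interval of the reported value. Another 28 moved past that interval, and 3 whose reported interval was clear of 0 moved to the other side of 0. Some of the 28 changed sign too, from a reported interval that included 0. Serpina3g in CD8 T cells went from 0.14 to -0.36 with doublets kept. Without cells holding a B marker, Serpinb1a in NK cells went from -0.35 to 0.64 and Serpina3g in regulatory T cells from 0.16 to -0.37. In B cells 65 of 66 kept their sign. The 3 that turned from a reported interval clear of 0 were Serpinb6b in CD8 T cells at resolution 0.8 (-0.019), and Serpina3g (1.14) and Serpina3f (0.43) in monocytes without cells holding a B marker. Leaving out such cells was an alternative chosen after seeing the data, and the cause was not tested. In B cells, a 5% mitochondrial limit gave -1.05 for Serpina3g and -0.27 for Serpinb1a, and thinned sums gave -0.38 for Serpinb1a and -0.25 for Serpinb6b. Vehicle cluster shares gave -0.48 for Serpina3g, -0.66 for Serpina3f, -0.11 for Serpinb1a and -0.26 for Serpinb6b. Leaving out cluster 3, also chosen after seeing the data, gave -0.76, -0.94 and -0.10 for the first 3 of these. The count of serpins at least 1.5-fold lower in B cells, 3 as reported, was 1 with Vehicle cluster shares, 5 at a limit of 1.2-fold and 1 at 2-fold. The share of all genes was not computed with Vehicle cluster shares or at these other limits, so nothing is read from these counts. The shares of all genes past 1.5-fold rose with weaker UMI filters, in B cells to 4.58% lower and 4.36% higher at 20 UMIs and to 9.25% and 9.47% with 1 UMI in each library. With log2(CPM + 1), 2 or 3 of the 3 genes named as most like a serpin kept that place, except 1 for Serpina3f and 1 for Serpinb9. No paired analysis was possible because each group is 1 library. Depth limits the small classes, where a serpin can rest on under 50 UMIs, and no spread between mice could be measured.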

Other observations

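Unnamed clusters also held serpin RNA. Cluster 23, led by cell division genes such as Top2a and Mki67 together with Gzma, had 35 Glutoborin and 19 Vehicle cells. It held Serpinb6b at 422 CPM in Glutoborin and 210.1 CPM in Vehicle, Serpinb9 at 344 CPM in Glutoborin and 426 CPM in Vehicle, and Serpinb9b at 105 CPM from 65 UMIs in Glutoborin and 17.8 CPM from 6 UMIs in Vehicle. Cluster T11, led by genes that include Cxcr6, Rora and Tcrg-C2, had 104 Glutoborin and 81 Vehicle cells and held Serpina3g at 156 CPM in Glutoborin and 239.97 CPM in Vehicle and Serpina3f at 105 CPM in Glutoborin and 73.3 CPM in Vehicle. Cluster T12, led by genes that include Ikzf2, Trdc and Tcrg-C2, had 62 Glutoborin and 57 Vehicle cells. It held Serpina3g at 152 CPM in Glutoborin and 141 CPM in Vehicle and Serpinb6b at 129 CPM in Glutoborin and 78.0 CPM in Vehicle. These values were chosen after they were seen, and no difference between the libraries was tested.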
